A study of Mus musculus with 12 samples.

Results

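Heterotrimeric G proteins carry signals from cell surface receptors to enzymes and channels. An activated receptor makes the α subunit exchange GDP for GTP, after which α and the βγ pair act separately on their effectors. RGS proteins (regulators of G protein signalling) speed up GTP hydrolysis by α and so shorten the signal. In Purkinje cells, the output neurons of the cerebellar cortex, the Gq class of α subunits acts through phospholipase C, which leads to calcium release from stores.

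The genes described here are all rows of the deposited table whose name starts with Gna, Gnb, Gng or Rgs. There were 32 such rows among 7667 usable genes. They comprised 11 α subunits, 4 β subunits, 7 γ subunits and 8 RGS proteins. The 2 remaining rows are no subunits: Gnb2l1 (now Rack1), which encodes a ribosome-bound scaffold of protein kinase C, and Rgs7bp, which encodes a membrane anchor of RGS proteins. GENCODE M21 names 58 protein-coding genes with these beginnings. Of these 31 had a row, Gnb2l1 was matched through its current symbol, and the other 27, among them Rgs2, Rgs9, Gng4 and Gng5, were not analysed here. Every row of the table reached a score of 10 in at least 1 condition, and 30 of the 32 members reached it in all 4. Rgs16 reached it only in wild type at 29 weeks, so its lower 92Q value at that age had to follow, and Rgs20 missed it only in that condition.

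Cerebellum was compared between fxSCA7 92Q mice, which model spinocerebellar ataxia type 7 with a run of 92 CAG repeats in the Atxn7 gene, and wild-type littermates with repeats of normal length, at 12 and at 29 weeks of age. Each of the 4 groups had 3 libraries, and every library pooled 3 mice, so 12 libraries were sequenced. Which promoter drives the expanded gene, and in which cells, is not given in the sources used here. Expression of Atxn7 was not analysed, which leaves the genotype labels without that check. The table holds 1 value per gene and condition, a normalized score in whole numbers with no stated unit. No comparison below has a replicate check or a test. "Higher" and "lower" refer to these single values, the read depth behind them is unknown, and scores are not compared between genes because the table states no scaling by length.

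Differences are log2 ratios of 2 scores after adding a pseudocount of 1 to each. The range beside a ratio is what rounding to whole numbers allows (each score moved by 0.5) and is not a measure of biological spread. A member is counted as higher or lower below when this ratio reached 5 to 4 in that direction. The column medians were all 22, and all 20 listed markers of granule neurons, the main neurons of the cerebellum, were measured. Summed scores of the Purkinje cell markers were 6947 in wild type and 5670 in 92Q at 12 weeks, and 5880 and 3982 at 29 weeks, with all 23 markers measured and none at 0. The pools also differed in other ways. Xist was 66 and 30 in wild type and 92Q at 12 weeks and 63 and 25 at 29 weeks, while the Y-linked Eif2s3y was listed at 0 and 12, then at 6 and 15, so the share of males in a pool and its genotype cannot be told apart. Choroid plexus markers summed to 464 and 68 at 12 weeks and to 586 and 1729 at 29 weeks over 8 of 10 listed genes, with Kl and Sostdc1 at 0 in some conditions. Markers that only in 92Q at 29 weeks reached the score every row attained in some condition had to be higher there. Among them were Kl, Sostdc1, Kcnj13 and Clic6, and some of the microglia, meningeal and blood markers used below. Ttr, at 336 and 6, then 445 and 1403, had no such limit.

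The members that differed most were Gng13, a γ subunit gene best known from taste and retinal bipolar cells and strongly expressed in Purkinje cells, and Rgs8, an RGS gene of Purkinje cells. Gng13 spans chr17:25717171-25719406 and Rgs8 spans chr1:153653025-153700323 (mm10, GENCODE M21, both protein-coding and on the plus strand, whole gene including introns and UTRs). The bases just upstream of their first RefSeq start are shown because these genes were lower together. Sequences are from RefSeq on GRCm38.p6, run 5′ to 3′ on the plus strand, and stop before the first annotated exon (chr17:25716922-25717170 and chr1:153652787-153653024). Capitals mark the E-box CANNTG and the CRE core TGACG, searched on both strands.

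Gng13: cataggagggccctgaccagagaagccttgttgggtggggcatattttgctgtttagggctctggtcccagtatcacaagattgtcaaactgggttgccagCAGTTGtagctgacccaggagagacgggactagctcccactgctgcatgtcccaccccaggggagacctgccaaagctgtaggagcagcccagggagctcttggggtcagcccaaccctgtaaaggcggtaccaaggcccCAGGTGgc
Rgs8: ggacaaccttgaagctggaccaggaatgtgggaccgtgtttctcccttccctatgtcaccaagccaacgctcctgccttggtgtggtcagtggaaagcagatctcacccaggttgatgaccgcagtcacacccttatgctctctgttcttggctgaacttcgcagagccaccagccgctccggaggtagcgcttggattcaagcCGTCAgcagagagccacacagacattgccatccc

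The Gng13 stretch held 2 E-boxes, 149 and 9 bases upstream of the start, and the Rgs8 stretch held the CRE core on the minus strand, 46 bases upstream. Distances run to the first base of a match. No motif searched stood in both printed stretches, although the Rgs8 window held E-boxes 10 and 29 bases after its start. In windows of 300 bases around annotated starts (250 before and 50 after), an E-box was found in 72.3% of all 32851 windows and in 70.6% of 34 member windows, and the CRE core in 20.8% and 29.4%. The GC box GGGCGG stood 5 and 10 bases after the Gng13 start, as overlapping copies, and in none of the 3 Rgs8 windows. It was found in 35.7% of all windows and 50% of member windows. The nuclear receptor core AGGTCA, present in 16.3% of all windows, stood in 1 Rgs8 window, 136 bases upstream of the third Rgs8 start. The member windows cover 26 genes and had a median GC content of 64.0%, against 52.7% over all windows. These matches are letters in a window and were not tied to binding.

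Gng13 had the lowest genotype ratio of the members at both ages. Its scores were 935 in wild type and 641 in 92Q at 12 weeks, and 759 and 386 at 29 weeks. The 92Q value was the lower one at each age, and the 12-week 92Q value lay below the 29-week wild-type value. The log2 ratio of 92Q to wild type was -0.54 at 12 weeks (1.46-fold lower) and -0.97 at 29 weeks (1.96-fold lower). Among all genes this ratio ranked 15th from the lowest of 7660 at 12 weeks and 11th of 7666 at 29 weeks. Rounding leaves these values nearly unchanged, with a range of -0.98 to -0.97 at 29 weeks. Exons of Gng13 overlap those of Chtf18 on the opposite strand over 399 of 773 bases. The counting is not stated to use strand, so reads in the shared bases cannot be told apart. Chtf18 was not analysed here.

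Rgs8 showed the same order of conditions with a smaller span. Its scores were 294 in wild type and 245 in 92Q at 12 weeks, and 262 and 154 at 29 weeks. The 29-week 92Q value stood well apart from the other 3. The log2 ratio was -0.26 at 12 weeks and -0.76 at 29 weeks (1.70-fold lower), which was the 23rd lowest of 7666 genes at the later age. Rgs16, which lies 40.0 kb downstream of Rgs8 on the same strand, had scores of 9 and 8 at 12 weeks and 10 and 8 at 29 weeks. Its log2 ratio was -0.29 at the later age (rounding range -0.44 to -0.14), a direction that had to follow from the limit given above. Gng13 and Rgs8 are also the only members in the authors' deposited table of selected genes, which lists the same 4 values for each. That table was selected on these samples, so it is not independent evidence of their direction.

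Counted over all members, 1 of 32 was lower in 92Q at 12 weeks by a ratio of at least 5 to 4 (Gng13) and 0 were higher, where 0.705% of all genes were lower and 0.17% higher by that rule. At 29 weeks 2 of 32 were lower by that ratio (Gng13 and Rgs8) and 0 were higher, against 2.24% and 2.01% of all genes. Both were also past 1.5-fold at 29 weeks, as were 0.73% of all genes, and 0 members were 1.5-fold higher, against 0.535%. At 12 weeks 0 members were past 1.5-fold, against 0.17% of all genes lower and 0.0783% higher. The other 30 members lay within 5 to 4 of wild type at both ages on this scale. The closest at 29 weeks was Rgs16 (-0.29), which passed the lower limit after quantile normalization of the columns (-0.37), so that 3 members were lower under that scaling. Its lower 92Q score at that age had to follow, because Rgs16 reached 10 only in wild type at 29 weeks. Over the full set of 4 conditions, 28 members had a highest value that exceeded their lowest by less than 5 to 4 after the pseudocount. The same count was not made over all genes, so the 28 do not tell how members compare with other genes.

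**Figure D1:**
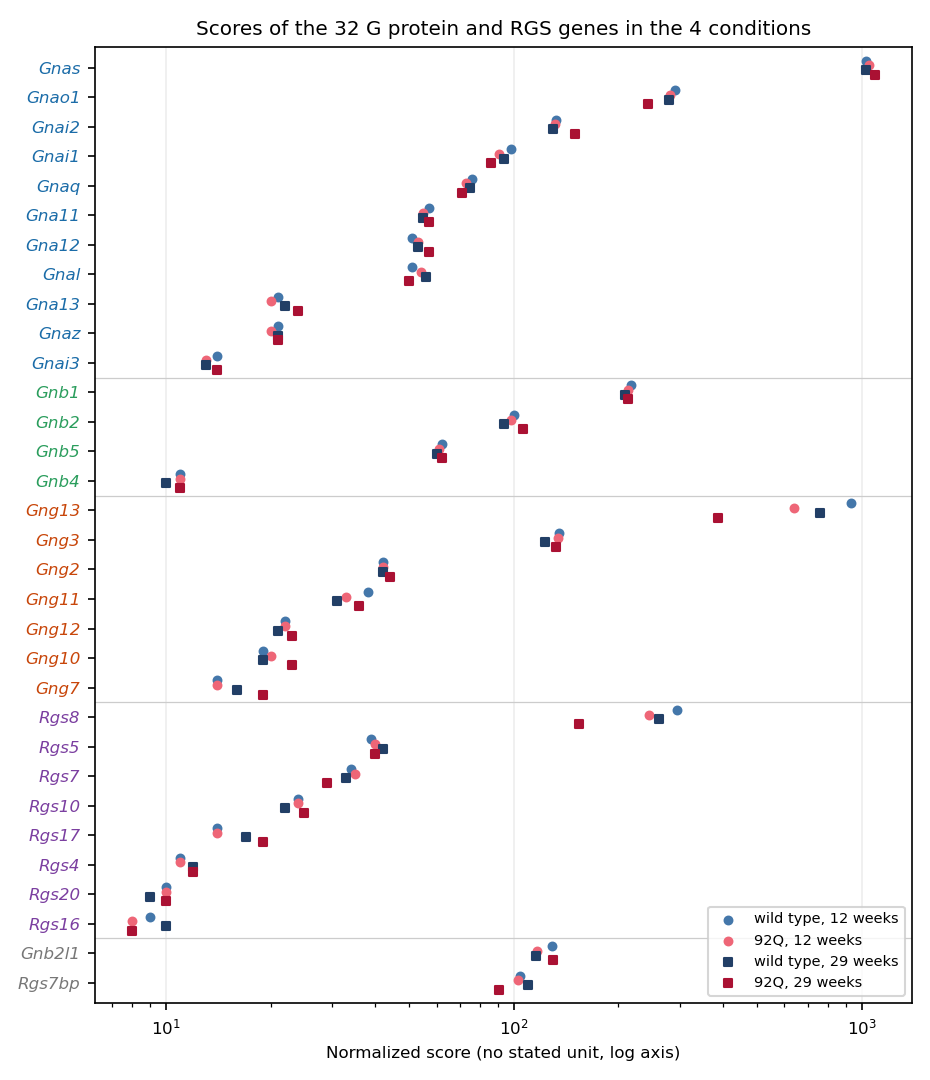
Normalized scores of the 32 members (log axis, no stated unit), grouped from top to bottom into α, β, γ, RGS and other genes; circles are 12 weeks and squares 29 weeks, blue wild type and red 92Q. Gng13 and Rgs8 are spread over a wide range, from 935 to 386 and from 294 to 154, while most other members have 4 nearly coincident marks.

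Because Gng13 and Rgs8 are genes of Purkinje cells, they were set beside the 23 Purkinje cell markers. The median log2 ratio of these markers was -0.20 at 12 weeks and -0.60 at 29 weeks. Gng13 lay below all 23 markers at both ages, the lowest of them being Pcp2 (-0.42) at 12 weeks and Fam107b (-0.89) at 29 weeks. Rgs8 lay among them, with 8 markers lower than it at 12 weeks and 4 at 29 weeks. At 29 weeks 3 of the 23 markers were above wild type and 20 below. The 3 were Nefm (0.29), Nefh (0.14) and Stmn4 (0.095). Nefm and Nefh are neurofilament genes that other neurons also express, and the part of other neurons in their values was not tested. In tissue RNA, fewer Purkinje cells and less RNA per Purkinje cell cannot be told apart.

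**Figure D2:**
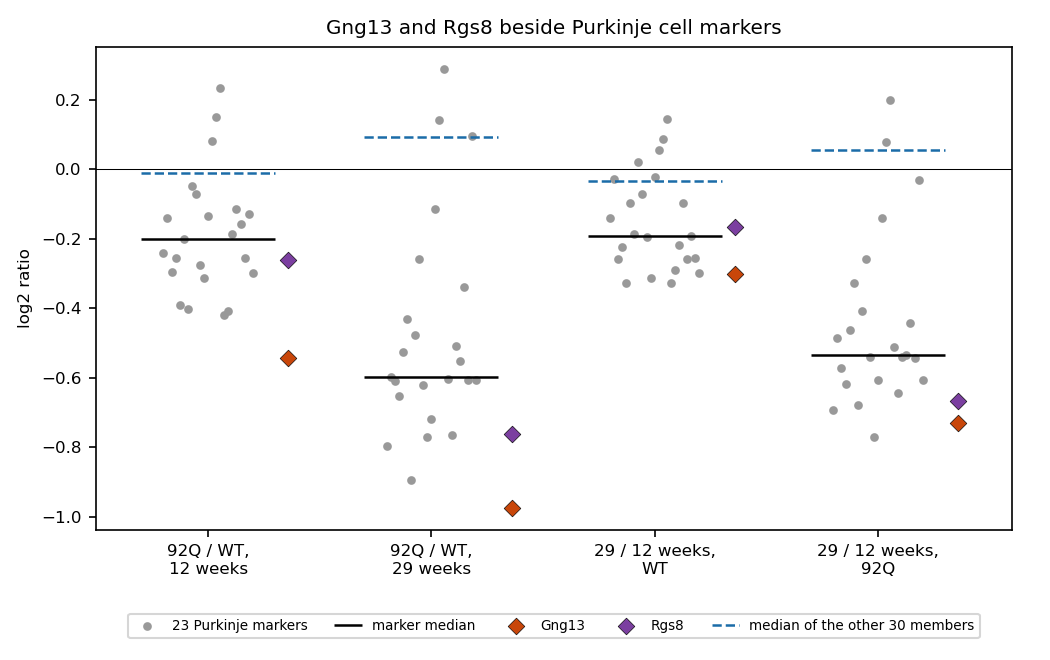
Log2 ratios in the 4 comparisons for the 23 Purkinje cell markers (grey points, black line at their median), for Gng13 and Rgs8 (diamonds) and for the median of the other 30 members (dashed line). Gng13 lies below every marker in both genotype comparisons, at -0.54 and -0.97, whereas the dashed line stays near 0.

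The α subunits differed little. Gnas, the Gs subunit that activates adenylyl cyclase, had scores of 1032 in wild type and 1050 in 92Q at 12 weeks, and 1027 and 1092 at 29 weeks. Its log2 ratio was 0.02 and then 0.09. The locus carries several imprinted transcripts and an antisense gene, Nespas, that shares exon bases with it, which the table does not separate. Gnal, the Golf subunit that replaces Gs in olfactory and striatal neurons, had scores of 51 and 54 at 12 weeks and 56 and 50 at 29 weeks. It was thus slightly higher in 92Q at the first age and lower at the second (0.08 and -0.16).

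Among the Gi/o class, which inhibits adenylyl cyclase and releases βγ to channels, members went in different directions. Gnao1, the Go subunit that is abundant in neurons, had scores of 291 in wild type and 281 in 92Q at 12 weeks, and 279 and 243 at 29 weeks. The 29-week 92Q score was the lowest of the 4 and the log2 ratio was -0.20 (-0.20 to -0.19). Gnai1 had 98 and 91 at 12 weeks and 94 and 86 at 29 weeks, so 92Q was lower at both ages (-0.11 and -0.13).

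Gnai2, the Gi subunit common in immune cells and glia, had 132 and 131 at 12 weeks and 130 and 150 at 29 weeks. Only the 29-week 92Q score stood apart, above the others, with a log2 ratio of 0.20 (0.19 to 0.22). In that condition the summed score of the microglia markers (14 of 19 measured, none at 0) was 474, against 222 in wild type at 29 weeks and 188 and 192 in wild type and 92Q at 12 weeks. Only in 92Q at 29 weeks did Lyz2, Cd68, Trem2, Ly86 and Cx3cr1 reach the score that every row attained in some condition. Their higher values there had to follow. The rest of the 14 also reached it elsewhere and were higher in 92Q at 29 weeks too, such as C1qa (63 against 26). The part of microglia in the Gnai2 value was not tested. Gnai3 had 14 and 13, then 13 and 14, and Gnaz 21 and 20, then 21 and 21, which are differences of at most 1 score unit.

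The Gq class, which activates phospholipase C, was nearly level between genotypes. Gnaq had scores of 76 and 73 at 12 weeks and 75 and 71 at 29 weeks, with log2 ratios of -0.06 and -0.08. Gna11 had 57 and 55, then 55 and 57, at ratios of -0.05 and 0.05. The G12/13 class, which acts on regulators of the cytoskeleton, was slightly higher in 92Q at 29 weeks. Gna12 had 51 and 53 at 12 weeks and 53 and 57 at 29 weeks, and Gna13 had 21 and 20, then 22 and 24 (0.10 and 0.12 at 29 weeks).

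The β subunits, which apart from Gnb5 form a stable pair with γ, were close to wild type. All 4 were higher in 92Q at 29 weeks by small amounts, with a median log2 ratio of 0.086, but only 3 were after median ratio scaling of the columns. Higher was also the commoner direction over all genes at that age, with 3791 of 7666 higher and 2003 lower. Gnb2 had the largest difference, with scores of 100 in wild type and 98 in 92Q at 12 weeks and 94 and 106 at 29 weeks (0.17). Gnb1 had 217 and 213, then 209 and 213. Gnb4 had 11 and 11, then 10 and 11, a difference that rounding alone could give.

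The γ subunits other than Gng13 went the other way at 29 weeks. All 6 were higher in 92Q at that age, with log2 ratios between 0.07 and 0.26, and the median of the 7 γ genes was 0.13 with Gng13 included. This direction, too, was that of 3791 of 7666 genes, against 2003 that were lower. Gng10 had the highest ratio of any member, with scores of 19 in wild type and 20 in 92Q at 12 weeks and 19 and 23 at 29 weeks (0.26, 0.20 to 0.33). Its exons share 946 of 1314 bases with Gm20503 on the same strand, so its score is uncertain. Gng7, a partner of Golf in the striatum, had 14 and 14, then 16 and 19 (0.23).

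Gng11, a γ subunit found in many non-neuronal cells, had the largest opposite differences at the 2 ages. Its scores were 38 in wild type and 33 in 92Q at 12 weeks, and 31 and 36 at 29 weeks. Its log2 ratio was -0.20 at 12 weeks and 0.21 at 29 weeks, so the ratios differed by 0.41, the largest positive difference of the members. Over 6 of 15 listed endothelial and mural cell markers the summed score was 139 and 140 at 12 weeks and 132 and 143 at 29 weeks, and over 6 of 9 listed meningeal markers 1663 and 1354, then 1460 and 1675. Ptgds alone gave 1551 and 1259, then 1349 and 1499, of the meningeal sum. Over the 14 myelin markers the sum was 4354 and 4092, then 4360 and 4668. The meningeal, myelin and choroid plexus sums, the last given above, shared the sign of Gng11 in both comparisons. Their part in its value was not tested. Gnb2l1 also had opposite signs, and its values follow with the genes that are no subunits.

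The remaining γ genes were nearly level. Gng3, a neuronal γ subunit, had scores of 135 and 134 at 12 weeks and 123 and 132 at 29 weeks. Gng2 had 42 and 42, then 42 and 44, and Gng12 had 22 and 22, then 21 and 23. Exons of Gng3 overlap Bscl2 on the opposite strand, and Bscl2 had scores of 54 and 54, then 50 and 55.

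Rgs7, its obligate partner Gnb5 and its anchor Rgs7bp form 1 complex at neuronal membranes and did not differ alike. Rgs7bp had scores of 104 in wild type and 103 in 92Q at 12 weeks, and 110 and 91 at 29 weeks. Rgs7, which acts on Gi/o subunits, had 34 and 35, then 33 and 29. Both were lowest in 92Q at 29 weeks, with log2 ratios of -0.27 (-0.29 to -0.26) and -0.18 (-0.23 to -0.14), after ratios of -0.01 and 0.04 at 12 weeks. Gnb5 had 62 and 61, then 60 and 62, and its ratio at 29 weeks was 0.05.

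The other RGS genes had low scores and small differences. Rgs10, a small RGS protein common in microglia, had scores of 24 and 24 at 12 weeks and 22 and 25 at 29 weeks (0.18, 0.12 to 0.24). Rgs5, a marker of pericytes, had 39 and 40, then 42 and 40. Rgs4 had 11 and 11, then 12 and 12, and Rgs20, which favours Gz, had 10 and 10, then 9 and 10. Rgs17, of the same subfamily as Rgs20, had 14 and 14, then 17 and 19. The scaffold gene Gnb2l1 had 129 in wild type and 117 in 92Q at 12 weeks, and 116 and 130 at 29 weeks, which gave ratios of -0.14 and 0.16.

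**Figure D3:**
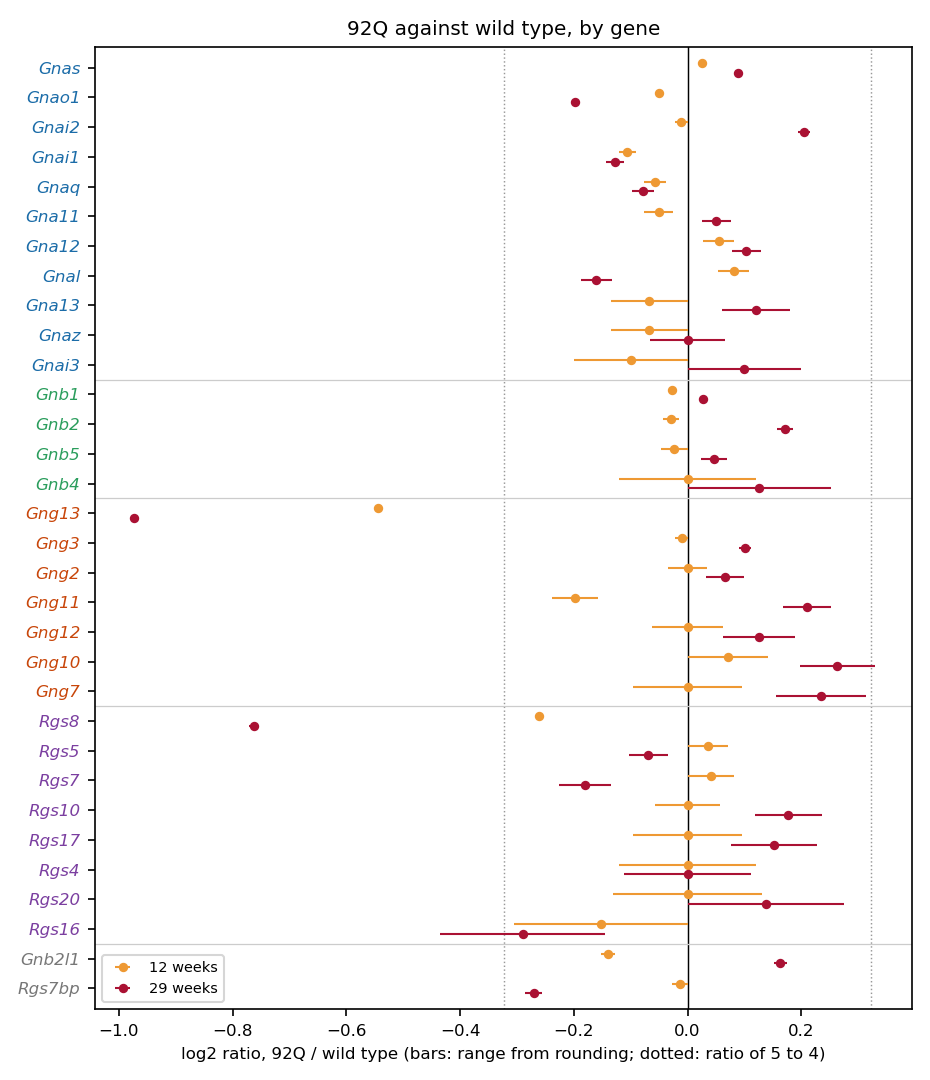
Log2 ratio of 92Q to wild type for each member at 12 weeks (orange) and 29 weeks (red), with bars for the range that rounding allows and dotted lines at a ratio of 5 to 4. Gng13 is beyond the left line at both ages and Rgs8 at 29 weeks, and the other 30 members lie between the lines.

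As a set, members without Gng13 and Rgs8 were spread around wild type. Their median log2 ratio was -0.01 at 12 weeks (6 higher, 16 lower, 8 equal) and 0.094 at 29 weeks (20 higher, 8 lower, 2 equal), while the median over all genes was 0.00 in both comparisons. All genes split into 2462 higher, 2812 lower and 2386 equal of 7660 at 12 weeks, and into 3791 higher, 2003 lower and 1872 equal of 7666 at 29 weeks, so the commoner direction of the members at each age was also that of all genes. After upper quartile scaling the 12-week split turned to 20 higher and 10 lower, and after median ratio scaling it was 14 and 16, so no direction is read from it. At 29 weeks the split was 20 and 8, 19 and 11, and 20 and 8 under the 3 other scalings (upper quartile, median ratio and quantile). At a looser 1.1-fold, 9 of 32 members were higher and 7 lower at 29 weeks, against 15% and 8.47% of all genes, and 0 were higher and 5 lower at 12 weeks, against 4.5% and 8.02%. The 7 include Rgs16, whose lower value at 29 weeks had to follow.

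**Figure D4:**
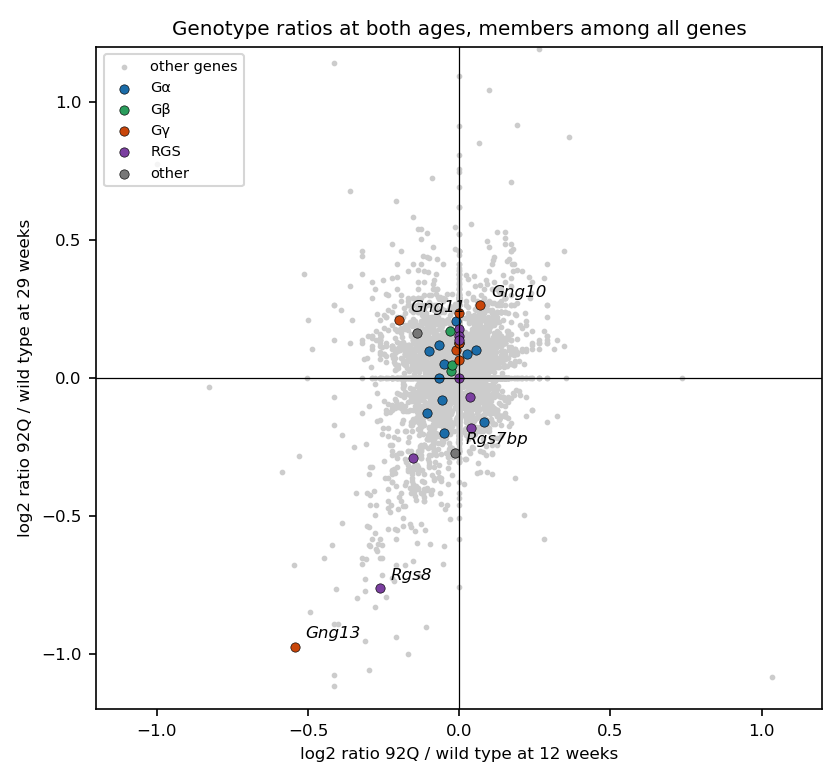
Log2 ratio of 92Q to wild type at 29 weeks against the ratio at 12 weeks, for the members (coloured by family) and all other genes (grey); 7638 genes are drawn and 21 lie outside the axes. Gng13 and Rgs8 lie in the lower left, and the other members lie in the dense centre, with Gng11 at -0.20 and 0.21 and Rgs7bp at -0.01 and -0.27.

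The next question was how the members differed between 12 and 29 weeks within each genotype. These comparisons use the same 4 columns as the genotype ratios and are no separate evidence. The ages also differed beyond the members. Eif2s3y was 6 after 0 in wild type and 15 after 12 in 92Q, and Ttr was 445 after 336 and 1403 after 6. Most clock genes were higher at 29 weeks, 13 of 16 in wild type (median 0.31) and 12 of 16 in 92Q (median 0.21). The others, 3 and 4, were lower. Immediate early genes had medians of 0.33 in wild type and 0.00 in 92Q, and all genes 0.00 in both. The cause was not tested. In wild type 0 of 32 members differed by 5 to 4, where 1.12% of all genes were higher and 1.68% lower. None reached 1.5-fold either, where 0.222% of all genes were higher and 0.144% lower. At 1.1-fold, 3 members were higher, against 10.6% of all genes, and 5 lower, against 17.1%. The 3 include Rgs16, whose higher value at 29 weeks in wild type had to follow. Gng13 had the lowest ratio (-0.30, 759 after 935), followed by Gng11 (-0.29, 31 after 38). Rgs8 had -0.17, close to the Purkinje marker median of -0.19, but its ratio was -0.074 after quantile normalization.

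In 92Q 2 of 32 members were lower at 29 than at 12 weeks by at least 5 to 4, against 2.47% of all genes, and 2 were higher, against 3.6%. The same 2 lower members were past 1.5-fold, against 0.483% of all genes, and 0 were 1.5-fold higher, against 0.978%. At 1.1-fold, 5 were lower and 6 higher, against 11.9% and 15.2%. The lower members were Gng13 (log2 ratio -0.73, 386 after 641) and Rgs8 (-0.67, 154 after 245), with the Purkinje marker median at -0.54. The higher ones were Gng7 and Rgs17, both with 19 after 14 (0.42, rounding range 0.33 to 0.50). In wild type they were higher too, by 0.18 for Gng7 (16 after 14) and by 0.26 for Rgs17 (17 after 14). Their age difference was thus shared in direction by both genotypes, unlike that of several others, such as Gnai2, Gng11, Gnb2 and Gnb2l1, which were lower with age in wild type and higher in 92Q. For Gnai2 the wild-type ratio was only -0.02, and it was above 0 after upper quartile scaling and after quantile normalization.

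**Figure D5:**
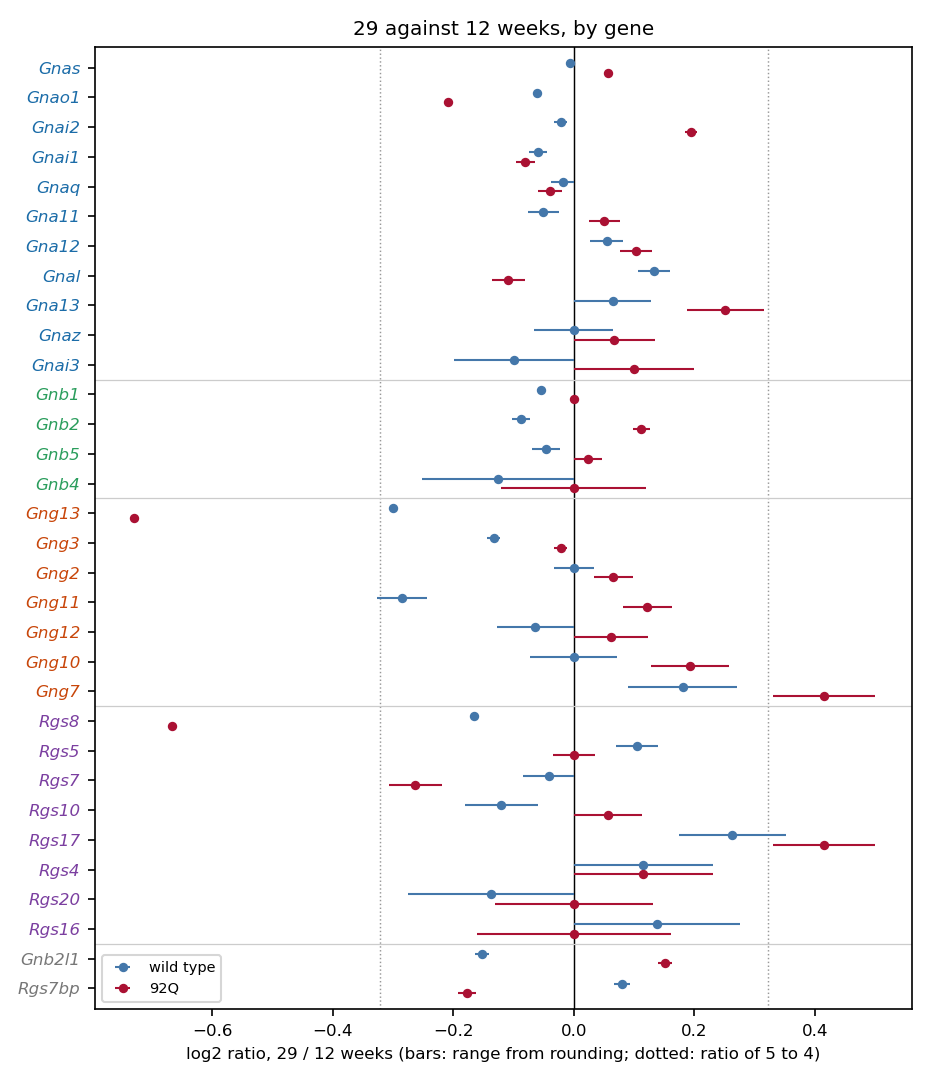
Log2 ratio of 29 to 12 weeks for each member in wild type (blue) and 92Q (red), with bars for the range that rounding allows and dotted lines at a ratio of 5 to 4. Gng13 and Rgs8 lie at -0.73 and -0.67 in 92Q and at -0.30 and -0.17 in wild type, and Gng7 and Rgs17 lie beyond the right line in 92Q only.

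The genotype ratio of Rgs8 was lower at 29 than at 12 weeks by 0.50 on the log2 scale and that of Gng13 by 0.43. The Purkinje markers had a median difference of -0.32, with 2 of 23 below Rgs8 and 7 below Gng13. Rgs7bp and Gnal followed among the members, with differences of -0.26 and -0.24. The median over the 32 members was 0.068 and that over all genes 0.0038.

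The genes that act before and after the G proteins were taken from lists of receptors, effectors and regulators. Of 26 measured G protein-coupled receptors, 5 were lower in 92Q at 29 weeks by at least 5 to 4 and 1 was higher (median -0.07), where 2.24% and 2.01% of all genes were. The largest ratios were those of Gpr63, an orphan receptor (9 against 15 in wild type, -0.68), Grm4, a Gi/o-coupled glutamate receptor of granule neurons (100 against 143, -0.51), Htr2c, a serotonin receptor that the choroid plexus also expresses (13 against 9, 0.49), and Crhr1, a Gs-coupled peptide receptor (34 against 47, -0.46). Only in 92Q at 29 weeks did Htr2c reach the score that every row attained in some condition, so its higher value there had to follow. The choroid plexus sum given above was also highest in that condition, and its part in the Htr2c value was not tested.

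The phospholipase C and IP3 branch was the lowest of these lists at 29 weeks. Of its 10 measured genes 5 were lower by at least 5 to 4 and 0 higher, with a median of -0.41. Itpr1, the IP3 receptor, was 190 against 313 (-0.72) and the diacylglycerol kinase Dgkz 132 against 194 (-0.55). Itpr1 is also on the Purkinje marker list. These genes act after Gnaq and Gna11, whose ratios were -0.08 and 0.05. At 12 weeks the branch had a median of -0.10 with 0 genes past that ratio.

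The cAMP branch did not share this pattern. Of 18 measured adenylyl cyclases, kinase subunits and phosphodiesterases, 1 was higher by at least 5 to 4 at 29 weeks, Pde10a (19 against 14, 0.42), and 0 were lower, with a median of 0.03. Adcy1, a calcium-stimulated cyclase, was 187 against 207 (-0.15). Among 6 channels gated or inhibited by βγ, 0 were past that ratio, and the potassium channel subunit Kcnj9 had the lowest ratio (33 against 39, -0.23).

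Of 20 further regulators of G proteins, 1 was lower by at least 5 to 4 at 29 weeks and 0 higher (median 0.04). The lower one was Pcp2, a Purkinje cell protein that binds Gi/o subunits, at 871 against 1324 (-0.60). It was also the only one of the 20 past that ratio at 12 weeks (1241 against 1661, -0.42). The guanine nucleotide exchange factor Arhgef1 was 19 against 16 (0.23), and the receptor sorting proteins Gprasp2 and Gprasp1 were 41 against 36 and 109 against 97.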

How the data were processed

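Cerebellar total RNA was sequenced as TruSeq libraries on an Illumina HiSeq instrument, per the labels' protocols. Per the submitters' processing notes, Bowtie 0.12.7, SAMtools 0.1.12a, Cuffdiff 1.3.0 and mm10 were used, with no role or order given. The deposited values are a normalized score, combined by the authors into 1 whole number per gene and condition. The sources used here state no unit, annotation or strand setting, and such a score hides depth and replicate spread. Of 7684 rows, 17 with a number for a name were left out. Log2 ratios used a pseudocount of 1 for genes reaching 5 in one or both conditions (pandas 2.3.3, numpy 2.4.6), and the ratio step was tested on simulated data. Members past a ratio of 5 to 4 in any comparison were described in full, all others by their scores, and up to 4 genes of each pathway list by size of ratio at 29 weeks, of which some are not reported here. Members, lists and thresholds were chosen with earlier results of these data known. Medians for 92Q against wild type at 29 weeks follow for marker lists with no sum or ratio above. Those of myelin, immediate early genes and clock genes are also given. They were granule neurons -0.10, interneurons and unipolar brush cells -0.14, astrocytes and Bergmann glia 0.088, myelin 0.16 and oligodendrocyte precursors 0.24. The others were blood 0.67, other brain regions -0.12, immediate early genes -0.41 and clock genes -0.13. The TATA box, the full CRE, the CRX core and the CCAAT box were also searched, and 13.6%, 1.79%, 7.06% and 37.4% of all promoter windows hold them.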

Additional observations from a re-analysis of the deposited data

How the results depend on the processing

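No paired analysis was possible because the table holds 1 value per condition and the columns carry no replicate, and for the same reason no library could be left out. Pseudocounts of 0.1 and 5, minimum values of 1 and of 10 in both conditions, 3 rescalings of the columns and the set without Gnb2l1 and Rgs7bp moved no count of members past a ratio of 5 to 4 by more than 1.5 times. Quantile normalization raised the number lower in 92Q at 29 weeks from 2 to 3, with Rgs16 at -0.37. The lower deposited value of Rgs16 there had to follow. Gng13 and Rgs8 kept the sign of each of their ratios: at 29 weeks Gng13 ranged from -1.0015 to -0.90 and Rgs8 from -0.79 to -0.75. With age in wild type Rgs8 ranged from -0.17 to -0.074. The median of the members moved by more than rounding allows in these cases: with upper quartile scaling it was 0.0221 for genotype at 12 weeks and -0.0102 for age in wild type, and with quantile normalization the latter was 0.0. Under upper quartile scaling the median of all genes was 0.0324 for genotype at 12 weeks and 0.0319 for age in wild type. In the deposited columns it was 0.00 in both. With quantile normalization it was 0 for age in wild type. Over all rescalings and comparisons it lay between -0.0296 and 0.0324. The cause was not tested. A 1.5-fold threshold left 0 members lower in 92Q at 12 weeks and 0 higher with age in 92Q. A 1.1-fold threshold, chosen after seeing the data, gave 5 lower at 12 weeks, 7 lower and 9 higher at 29 weeks, 5 lower and 3 higher with age in wild type, and 5 lower and 6 higher with age in 92Q. The 7 and the 3 include Rgs16, whose direction in both had to follow. Whole-number scores limit genes near 10, where 1 unit is a log2 difference of about the size of most ratios given.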
